A study of Homo sapiens with 3 samples.

Results

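The MYC and MAX network was described here through 10 genes taken by symbol from 35880 in the deposited table: MYC, MYCN, MYCL, MAX, MXD1, MXD3, MXD4, MXI1, MNT and MLX. The RNA came from untreated HEK293T, an established line derived from human embryonic kidney cells and carrying SV40 large T antigen. Cells grew in high-glucose DMEM with 10% FBS and were harvested at 70% confluence, and poly(A) RNA was made into directional libraries. The 3 libraries, labelled biological replicates 1, 2 and 3, form a single group with no control, so levels were compared between genes and with a fixed level. Whether each replicate was its own culture is not stated in the labels, and p-values here reflect only the spread among the 3 libraries, which may be technical. Levels are in TPM, a transcript abundance that is corrected for length and scaled to a constant total per library, so genes can be compared within a library. Errors are SD over the 3 libraries (n = 3).

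MYC, MYCN and MYCL are transcription factors of the basic helix-loop-helix leucine zipper class, which bind E-box DNA and activate genes for growth only as dimers with MAX. The MXD proteins, MXI1 and MNT compete for MAX and bring SIN3 corepressors to the same sites. MLX is a MAX-like partner for the glucose-sensing factors MLXIP (MondoA) and MLXIPL (ChREBP), and also pairs with some of the repressors.

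Several members are made as protein isoforms that differ at 1 exon, and the letters below show joins at which the named transcripts differ. A join can be shared with other models of the gene: MAX-204, MAX-205 and MLX-202 have 0 stretches (words) of 31 bases found in no other transcript, and MLX-203 has 4. All are 5′ to 3′ on the coding strand, read from GENCODE 29 on hg38. For MAX, the capitals mark the 27-base exon at chr14:65101546-65101572 (minus strand) that MAX-205, the 160-residue form, has and that MAX-204, the 151-residue form, skips.
MAX-205: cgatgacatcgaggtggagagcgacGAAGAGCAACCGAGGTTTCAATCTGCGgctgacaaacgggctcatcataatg
MAX-204: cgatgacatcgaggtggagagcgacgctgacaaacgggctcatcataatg

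A further MAX entry, MAX-209, is a 327-base model annotated as a retained intron, and it is shown because it carried much of the gene's TPM. It starts 13 bases before MAX-204 and runs 5 bases past an exon end that both share. The 30 bases printed for MAX-209 lie at chr14:65093703-65093732 (minus strand). Capitals mark its last 5 bases, and in MAX-204 the next exon, which follows the same letters.
MAX-209: agtcccatcactccaaggagagaagGTGAG
MAX-204: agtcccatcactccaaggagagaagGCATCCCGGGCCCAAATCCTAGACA

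MXI1 has alternative first exons that give the protein different starts. Capitals mark the end of the first exon, at chr10:110225993-110226283 in MXI1-201 (228 residues) and at chr10:110207605-110208082 in MXI1-202 (295 residues), both on the plus strand.
MXI1-201: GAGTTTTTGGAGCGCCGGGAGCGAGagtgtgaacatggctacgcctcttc
MXI1-202: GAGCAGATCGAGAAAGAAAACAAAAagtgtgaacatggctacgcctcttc

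In MLX, capitals mark the 90-base exon at chr17:42568470-42568559 (plus strand) that MLX-203 (244 residues) has and MLX-202 (214 residues) skips.
MLX-203: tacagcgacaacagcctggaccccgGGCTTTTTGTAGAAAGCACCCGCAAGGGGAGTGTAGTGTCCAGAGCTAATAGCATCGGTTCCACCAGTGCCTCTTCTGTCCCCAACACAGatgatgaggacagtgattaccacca
MLX-202: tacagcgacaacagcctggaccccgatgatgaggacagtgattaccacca

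The MYC family was almost entirely MYC. MYC, the general growth-promoting member and the most abundant of the 10 genes, had 113.154 TPM in replicate 1, 115.274 in replicate 2 and 111.559 in replicate 3. Its 3 values lay close together, at 113 ± 1.86 TPM with a coefficient of variation (CV, the SD as a percent of the mean) of 1.64%. The next values, as all below, are in the same order of replicates. MYCL, known for its amplification in small cell lung cancer, was listed at 4.10, 4.72 and 4.20 TPM. The highest MYCL value, in replicate 2, was far below the lowest MYC value, and the log2 ratio of MYC to MYCL was 4.68 ± 0.0878. MYCN, the member amplified in neuroblastoma, was listed at 0.264, 0.173 and 0.366 TPM. MYCN had the widest relative spread of the 10 genes (CV 35.9%), yet its highest value was below every MYCL value. The log2 ratio of MYC to MYCN was 8.30 ± 0.408 with 0.1 TPM added to both, and 6.50 with 1 TPM added. Summed over the family, MYC held 96.1% ± 0.181 of the TPM.

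MYCN rested on few reads. The deposited column of estimated counts names no library, but TPM rebuilt from it matched replicate 1 and not the other replicates. The count was 15 for MYCN (95% exact Poisson interval 8.40 to 24.7, counting error only), beside 218 for MYCL (190 to 249) and 4665 for MYC. Symbols within a factor of 2 of the MYCN level had a median CV of 44.0%, and 41.3% of them had a lower CV than MYCN. MYCN overlaps the antisense gene MYCNOS on the opposite strand by 1686 bases. No transcript was listed under the symbol MYCNOS, so its level is not known here. The strand setting of the quantification was not given in the sources used here. MYCL shared 8 of its 5057 words of 31 bases with the pseudogene MYCLP1.

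MAX, the shared dimer partner, was listed at 97.9, 108 and 98.9 TPM, with replicate 2 above the other libraries. Its mean was 102 ± 5.78 TPM, and MYC exceeded it in each of the 3 libraries by 0.16 ± 0.0615 on the log2 scale. The ranges of MYC and MAX did not overlap. The CV of MAX, 5.68%, was above that of 91.7% of the 2638 symbols within a factor of 2 of its level, whose median CV was 2.57%. Over transcripts annotated as protein-coding, MAX was listed at 68.6, 69.2 and 64.97 TPM, a mean of 67.6 ± 2.28 TPM. On that scale replicates 1 and 2 were within 1 TPM of each other and replicate 3 was lowest.

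Of the antagonists, MXD4 was the most abundant. MXD4, a repressor of the MXD group, was listed at 53.1, 51.6 and 54.8 TPM and held 43.1% ± 1.40 of the antagonist TPM. MNT, the antagonist known for its broad presence across cell types, was listed at 26.5, 26.3 and 28.1 TPM. All 3 MNT values were below every MXD4 value and above every MXD3 or MXI1 value. MXD3, a member linked to proliferating cells, was listed at 20.3, 21.99 and 19.2 TPM. MXI1, a repressor studied as a candidate tumour suppressor, was listed at 19.5, 21.7 and 18.9 TPM. The ranges of MXD3 and MXI1 overlapped, with replicate 2 highest and replicate 3 lowest for both, and the log2 ratio of MXD3 to MXI1 was 0.04 ± 0.0186. MXD1, known to rise when cells differentiate, was the lowest antagonist, at 2.97, 2.45 and 2.31 TPM. Replicate 1 was highest for MXD1, and MXD4 exceeded MXD1 by 4.32 ± 0.199 on the log2 scale. The leading transcript, MXD1-201, was not highest in replicate 1, at 2.13, 2.24 and 2.04 TPM. MXD1-204, which shares sequence with the gene SNRNP27, was listed at 0.406, 0.0558 and 0 TPM, and MXD1-203 at 0.239, 0 and 0 TPM. What the reads assigned to MXD1-204 and MXD1-203 stand for was not tested.

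MLX was listed at 52.0, 50.7 and 55.2 TPM, and its range overlapped that of MXD4. The log2 ratio of MXD4 to MLX was 0.02 ± 0.0214, higher for MXD4 in 2 of 3 libraries. MAX exceeded MLX in all 3 libraries by 0.95 ± 0.131 on the log2 scale. The partners of MLX were lower than MLX itself: MLXIP was listed at 28.0 ± 0.540 TPM and MLXIPL at 10.7 ± 1.35 TPM. The ratio of MLX to the sum of both was 1.36 ± 0.0955. Over protein-coding transcripts alone that ratio was 2.21 ± 0.0861, but there 11 of the 22 MLXIP transcripts, copies of the others, had no match in the annotation and were not counted. MGA, a large protein that joins a T-box domain to the zipper class and pairs with MAX, was listed at 20.3 ± 0.577 TPM, below MNT by 0.41 ± 0.0837 on the log2 scale. Over protein-coding transcripts alone, MGA was instead above MNT in all 3 libraries, with a log2 ratio of MNT to MGA of -1.18 ± 0.05.

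**Figure D1:**
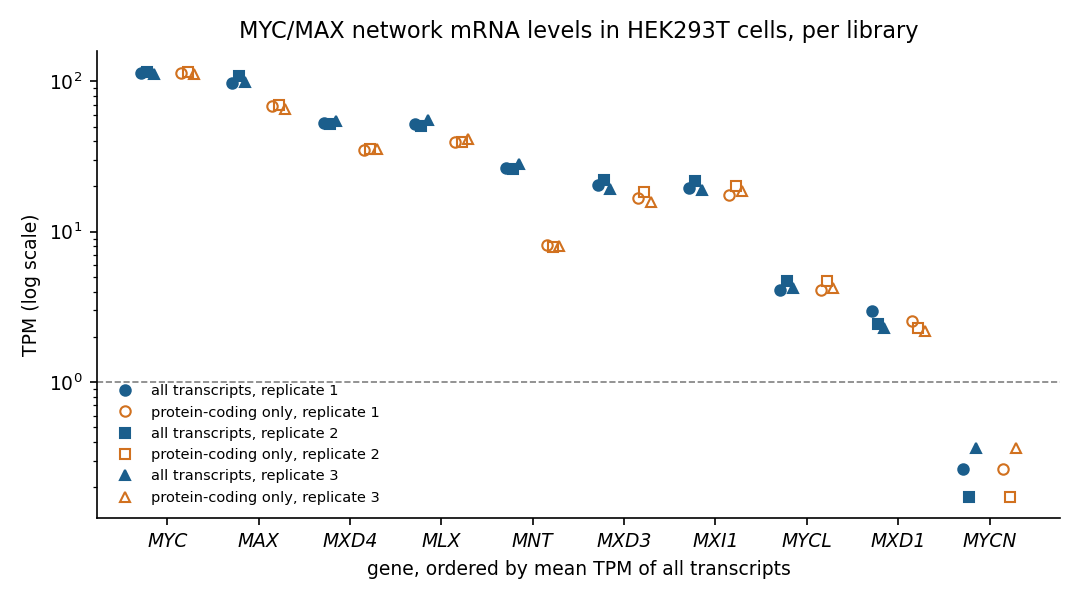
Gene TPM of the 10 members on a log axis, with 1 point per library (n = 3), filled for all transcripts and open for protein-coding transcripts alone; the dashed line is 1 TPM. MYC and MAX are highest, at means of 113 and 102 TPM over all transcripts, and MYCN, at 0.268 TPM, is the only member under 1 TPM.

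In order, the members were MYC, MAX, MXD4, MLX, MNT, MXD3, MXI1, MYCL, MXD1 and MYCN. The neighbours whose ranges overlapped were MXD4 with MLX and MXD3 with MXI1. The widest gaps were from MXI1 to MYCL, 2.21 ± 0.0436 on the log2 scale, and from MXD1 to MYCN, 3.32 ± 0.599. MYC was above 93.1% of the 19802 protein-coding symbols and MAX above 92.0%, while MYCL was above 46.6%, MXD1 above 42.5% and MYCN above 28.6%. Against 1 TPM, 9 of the 10 members were above and MYCN was below when log2(TPM + 0.01) was tested with limma over 21990 symbols at a Benjamini-Hochberg adjusted p under 0.05. Of all symbols tested, 58.5% were above and 33.9% below. The limma difference of MYCN from 1 TPM was -1.92 (SE 0.319, adjusted p = 0.00441), which understates the distance of a low gene, and its value was below 1 TPM in 3 of 3 libraries. Among the 9 genes above, the smallest limma difference was that of MXD1, 1.35 (SE 0.108, adjusted p = 0.000333), and the largest was that of MYC, 6.81 (SE 0.0162, adjusted p = 1.51e-09). The median level of the 10 members was 23.7 TPM, beside 4.29 TPM over all symbols tested.

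The summed mRNA levels of activators and antagonists were close to each other over all transcripts only. Their order and the gap between them depended on which transcripts were counted. With all transcripts, MYC, MYCN and MYCL summed to 118, 120 and 116 TPM, and the 5 antagonists (MXD1, MXD3, MXD4, MXI1, MNT) to 122, 124 and 123 TPM. The antagonist sum was the higher in every library, and the ratio of activators to antagonists was 0.957 ± 0.0139. Over protein-coding transcripts alone, the antagonists summed to 80.0, 84.3 and 80.1 TPM while the MYC family kept all its TPM. The MYC family has no annotated non-coding model, so this filter could lower only the antagonists and MAX, and could only raise the ratio. The activator sum was then the higher in every library, with a ratio of 1.45 ± 0.0219. Activators and antagonists together came to 2.37 ± 0.107 times the TPM of MAX with all transcripts and to 2.95 ± 0.0707 times with coding transcripts. These are mRNA levels, and no protein level was measured.

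**Figure D2:**
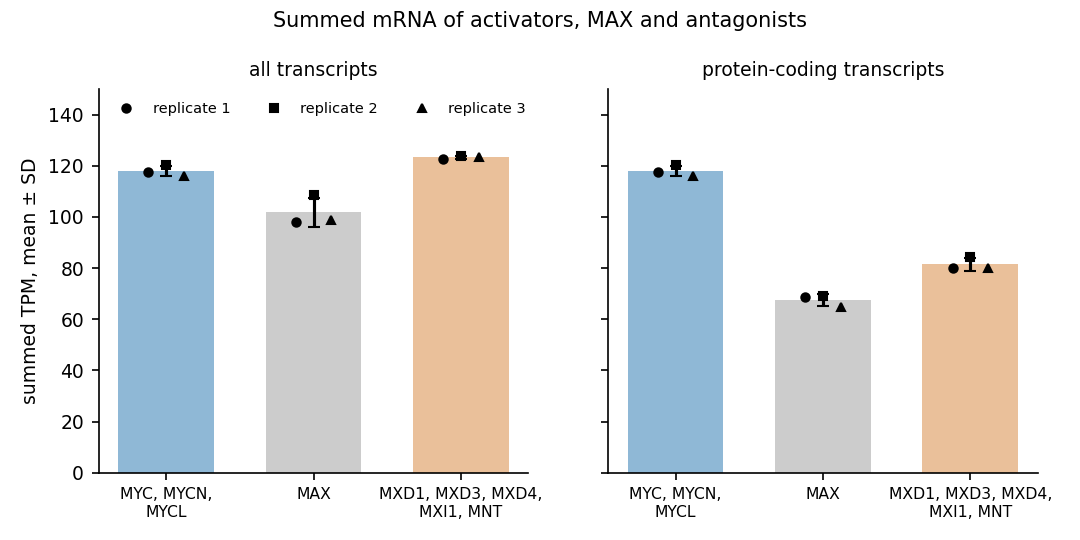
Summed TPM of the MYC family, MAX and the antagonists, over all transcripts and over protein-coding transcripts alone; bars are means, error bars SD and points the 3 libraries. The antagonist mean is 123 TPM in the first panel and 81.5 TPM in the second, and the MYC family is at 118 TPM in both.

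The members differed in how much of their TPM was annotated as coding. MYC, MYCN and MYCL had 100% in protein-coding transcripts, which the annotation fixed in advance, since all their listed models are protein-coding. Among the members with non-coding models, MXI1 had 93.8% ± 4.66 and MXD1 91.3% ± 5.15. MXD3 had 82.4% ± 0.828, MLX 76.3% ± 1.68, MXD4 66.6% ± 2.20 and MAX 66.5% ± 3.18. MNT was lowest, at 29.8% ± 1.08, with 51.3% ± 3.39 of its TPM in retained-intron models. Over coding transcripts alone MNT was listed at 8.17, 7.90 and 8.05 TPM and moved in the order from above MXD3 and MXI1 to below both. The log2 ratio of MXI1 to MNT was -0.43 ± 0.147 with all transcripts and 1.21 ± 0.124 with coding ones, with the same sign in all 3 libraries on each scale. The coding order was MYC, MAX, MLX, MXD4, MXI1, MXD3, MNT, MYCL, MXD1 and MYCN.

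**Figure D3:**
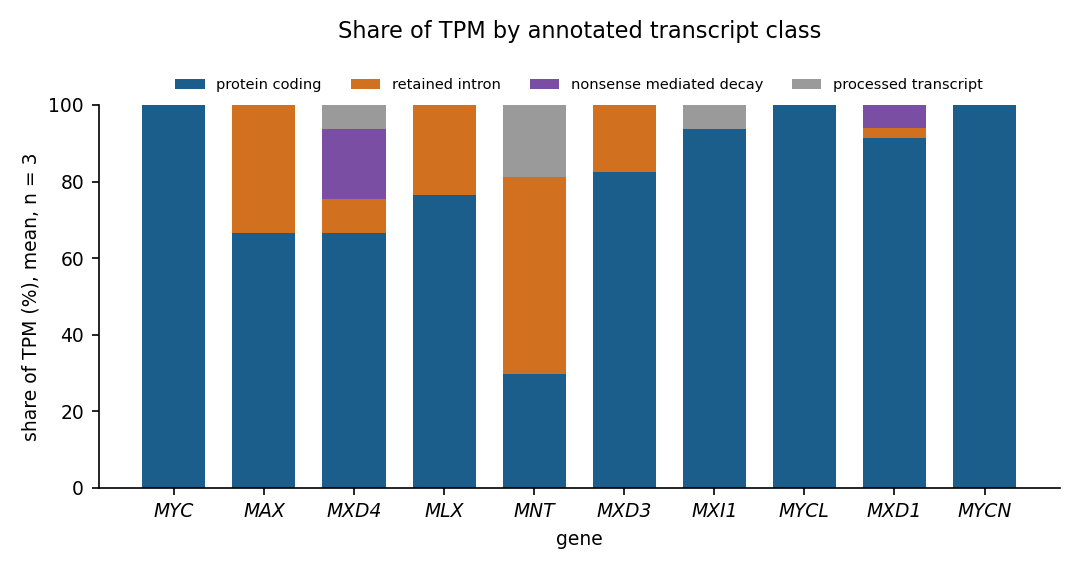
Share of each member's TPM (%, mean of 3 libraries) by annotated transcript class, stacked. Retained-intron models make up 51.3% of MNT, 33.4% of MAX and 23.7% of MLX.

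The short non-coding models held much TPM and few reads. MAX-209, the 327-base model with its last bases shown above, was listed at 28.0, 39.2 and 33.3 TPM, with replicate 2 highest as for MAX as a whole. It held 32.8% ± 3.87 of the MAX TPM but 4.65% of the reads that its TPM and effective length of 136 bases stand for. The column of estimated counts, which matched replicate 1, where the TPM of MAX-209 was lowest, gave it 90.3 reads of the 2315 for MAX. Of its 297 words of 31 bases, 280 also occur in MAX-204, and each occurs in at least 1 other transcript. MNT-205, a retained-intron model of 528 bases, likewise held 33.1% ± 3.31 of the MNT TPM and 5.10% of its reads, while MNT-201, which codes for 582 residues, held 29.7% ± 1.07 of TPM and 68.8% of reads. A longer retained-intron model, MNT-209, held 18.1% ± 0.085 of the MNT TPM and 22.9% of its reads. The main transcript of MNT by TPM was MNT-205 in replicates 1 and 3 and MNT-201 in replicate 2. The other 9 members had the same main transcript in all 3 libraries. What the reads assigned to these short models stand for was not tested.

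**Figure D4:**
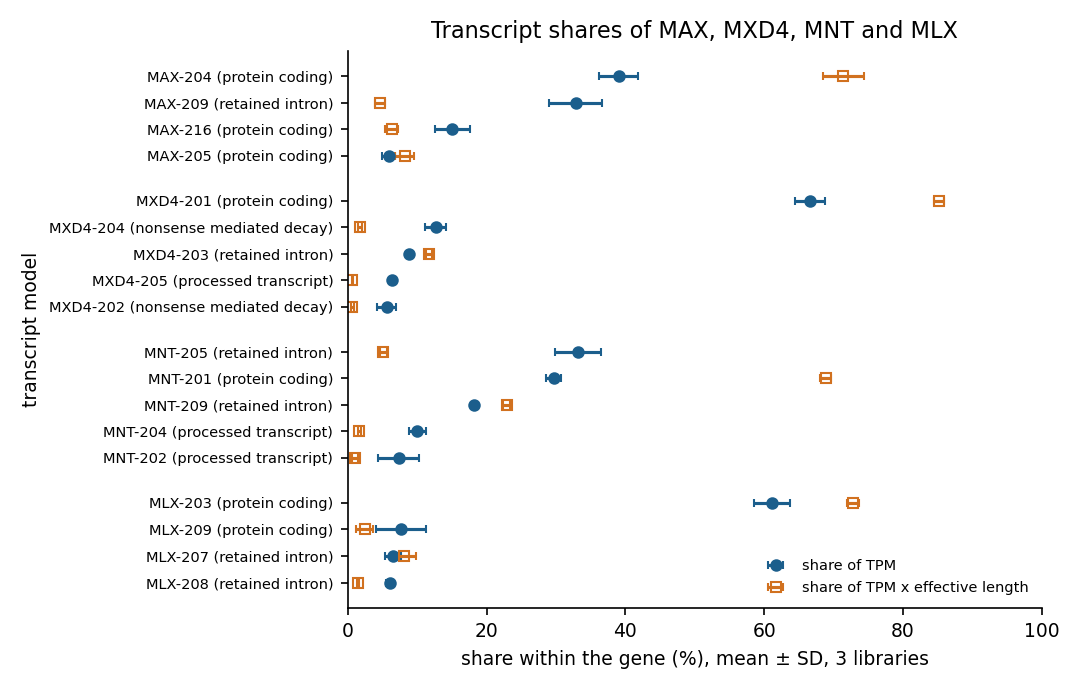
Share of gene TPM (filled) and of TPM times effective length, which stands for reads (open), for transcripts of MAX, MXD4, MNT and MLX with at least 5% of TPM, as mean ± SD of 3 libraries. MAX-209 and MNT-205 hold 32.8% and 33.1% of TPM but 4.65% and 5.10% of reads.

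Among the coding isoforms of MAX, the shorter form led. MAX-204, which skips the 27-base exon, was listed at 41.3, 39.9 and 37.8 TPM and MAX-205, which has it, at 4.90, 6.34 and 6.78 TPM. Their ranges were far apart, and the log2 ratio was 2.74 ± 0.308. A further coding transcript with the exon, MAX-216 (103 residues), was listed at 15.3 ± 2.26 TPM. Over all annotated MAX transcripts, the 11 with the exon summed to 27.2 ± 0.626 TPM and the 5 that skip it to 73.2 ± 5.20 TPM. The latter include the non-coding MAX-209 at 33.5 ± 5.62 TPM beside MAX-204 at 39.7 ± 1.78 TPM, so without MAX-209 the contrast is smaller.

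MXI1 was led by the transcript with the 228-residue product. MXI1-201 was listed at 11.04, 10.03 and 10.1 TPM and MXI1-202 at 5.26, 6.81 and 6.10 TPM, with no overlap. Replicate 1 was highest for MXI1-201 and lowest for MXI1-202, and the log2 ratio was 0.79 ± 0.260. Their shares of reads were closer, 49.0% for MXI1-201 and 41.8% for MXI1-202. The contrast was also smaller over all MXI1 transcripts grouped by the end of the first exon. Those ending it as MXI1-201 does summed to 10.5 ± 0.576 TPM (52.8% ± 4.89 of the gene). Those ending it as MXI1-202 does summed to 7.05 ± 1.25 TPM (35.2% ± 5.11).

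In MLX the 244-residue form led. MLX-203 was listed at 31.9, 32.3 and 32.3 TPM, 61.2% ± 2.60 of the gene, and MLX-202, without the 90-base exon, at 1.78, 1.80 and 1.35 TPM. The log2 ratio of MLX-203 to MLX-202 was 4.31 ± 0.240. The contrast was smaller over all MLX transcripts: those with the 90-base exon summed to 34.4 ± 0.946 TPM (65.5% ± 4.40 of the gene) and the 4 that skip it to 10.8 ± 2.90 TPM (20.3% ± 4.66). MLX-201, which codes for 298 residues, was listed at 3.26, 2.44 and 1.09 TPM and was lowest in replicate 3, where MLX as a whole was highest.

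MXD4, MXD3, MXD1 and MYCN had 1 leading coding transcript each. MXD4-201 (209 residues) held 66.6% ± 2.20 of the TPM, MXD3-203 (206 residues) 53.4% ± 4.95 and MXD1-201 (221 residues) 83.9% ± 10.7. MYCN-201 (464 residues) held 91.7% ± 14.3, and was the only MYCN transcript above 0 in replicates 1 and 2. Non-coding models took further shares in MXD4, where MXD4-204, annotated for nonsense-mediated decay, held 12.7% of TPM and 1.74% of reads, and in MXD3, where the retained-intron model MXD3-206 held 13.4% ± 3.15 of TPM. MXD3-209, an incomplete coding model, held 11.6% ± 2.47. In MYC the TPM was split over coding transcripts with no 31-base word of their own: MYC-207 (454 residues) held 51.2% ± 4.10, MYC-206 19.7% ± 2.56 and MYC-205 (453 residues) 15.9% ± 2.12. The total of MYC was steadier (CV 1.64%) than the split, since MYC-207 was listed at 61.6, 60.6 and 52.0 TPM and was lowest in replicate 3. In MYCL the leading transcript was MYCL-203 (394 residues) with 45.8% ± 2.18, followed by MYCL-201 (236 residues) with 30.4% ± 1.55 and MYCL-202 (364 residues) with 23.8% ± 0.905.

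On hg38 (GENCODE 29), MYC lies on chromosome 8, MYCN at chr2:15940564-15947007, MYCL at chr1:39895426-39902256 and MAX at chr14:65006174-65102695. MXD1 lies at chr2:69897688-69942945, MXD3 at chr5:177301461-177312757, MXD4 at chr4:2247432-2262294 and MXI1 at chr10:110207605-110287365. MNT and MLX are both on chromosome 17, at chr17:2384060-2401118 and chr17:42567068-42573239. Counted in words, shared sequence touched MXD3 most. MXD3 shared 898 of its 5284 words (16.99%) with RAB24, a small GTPase gene. RAB24 overlaps MXD3 on the same strand by 2284 bases and was listed at 56.9, 53.6 and 55.2 TPM. Only the retained-intron models MXD3-205 (898 words) and MXD3-207 (269 words) had these shared words. They held little of the MXD3 TPM, 0.269% ± 0.467 and 3.87% ± 2.60. The leading transcript, MXD3-203, held 53.4% ± 4.95 and had 0 words in other genes. MLX shared 240 of its 4481 words (5.36%) with other genes and MNT 392 of 8717 (4.50%). In MNT-209, which held 18.1% of the MNT TPM and 22.9% of its reads, 378 of 2783 words were in other genes. In MLX-206, with 3.29% of the MLX TPM, it was 233 of 2283. On the opposite strand MXD3 overlaps PRELID1 (404, 405 and 400 TPM), MAX overlaps FNTB (14.2, 14.5 and 15.0 TPM) and MLX overlaps PSMC3IP (62.5, 58.9 and 57.5 TPM). Words were counted on the transcript strand only, so sequence shared with the opposite strand was not examined.

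The genes around the network were nearly all above 1 TPM. In 7 further lists of network genes, 78 of 79 were above and 1 was below by the limma test, beside 58.5% and 33.9% of all symbols. All 13 SIN3 and NCOR corepressor genes were above, from SUDS3 (29.1 ± 2.38 TPM), a SIN3 complex subunit, to RBBP4 (386 ± 5.24 TPM), a histone-binding subunit. All 13 MYC coactivator genes were above, from EP400 (26.9 ± 0.407 TPM) to RUVBL2 (235 ± 1.91 TPM), both subunits of chromatin remodelling complexes. Over protein-coding transcripts alone RBBP4 was listed at 155 ± 5.39 TPM and RUVBL2 at 52.8 ± 6.25 TPM, and neither was then the highest of its list. The 13 genes of MYC protein turnover ran from the kinase gene PIM1 (7.198 ± 0.554 TPM) to SET (787 ± 10.9 TPM), an inhibitor of the phosphatase that acts on MYC. The 4 genes of the MIZ1 arm, through which MYC represses cell cycle inhibitors, were all above 1 TPM with a median of 9.54 TPM, from CDKN1C (4.62 ± 0.303 TPM), a cell cycle inhibitor, to ZBTB17 (16.9 ± 1.37 TPM), which encodes MIZ1 itself.

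The 27 well-known MYC-bound target genes had the highest list median, 283 TPM, and all 27 were above 1 TPM. They ran from TERT (12.7 ± 0.607 TPM), the telomerase catalytic subunit, to NPM1 (4957 ± 31.5 TPM), a nucleolar protein. Over protein-coding transcripts alone TERT was listed at 3.81 ± 0.118 TPM, and NPM1 at 3175 ± 43.2 TPM. Of the 6 target genes of MLXIP and MLXIPL, 5 were above 1 TPM, with FASN, the fatty acid synthase, highest at 343 ± 2.33 TPM. PKLR, the liver pyruvate kinase and a classical target of MLXIPL, was listed at 0.0451, 0 and 0.0223 TPM and was below 1 TPM in limma (adjusted p = 0.00227). Whether the levels of these genes follow MYC or MLX cannot be told from 1 untreated group.

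**Figure D5:**
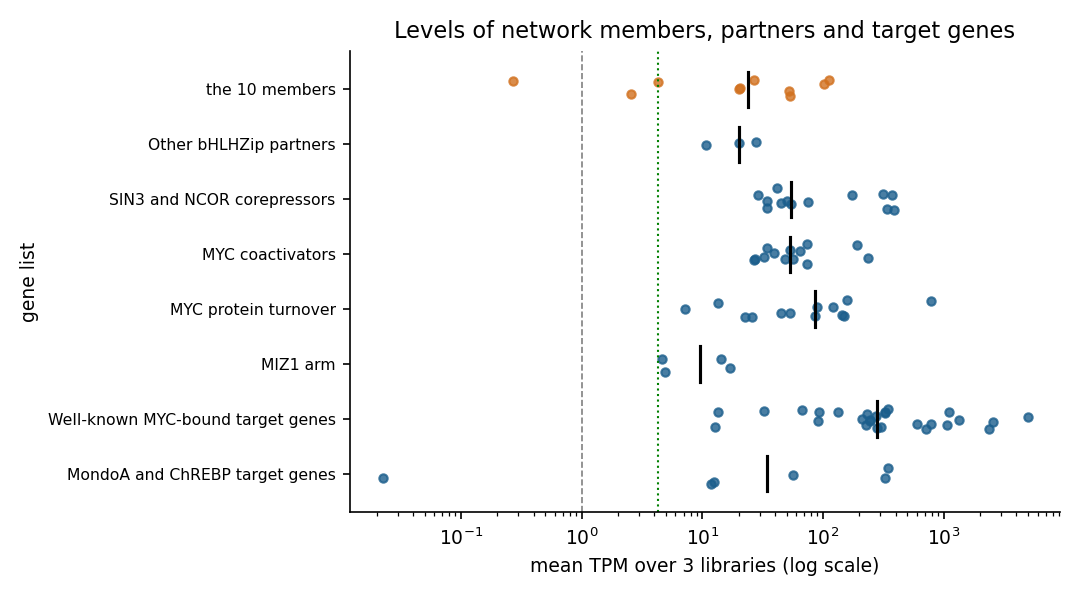
Mean TPM over 3 libraries (log axis) of the 10 members and of the genes in each list, with 1 point per gene and a black bar at the median; the dashed line is 1 TPM and the dotted line the median of all symbols tested, 4.29 TPM. MYC-bound targets have the highest median, 283 TPM, and PKLR is the one list gene left of the dashed line.

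As a check of the cell line, the epithelial markers were uneven, with the keratins KRT18 and KRT8 at 55.2 and 31.3 TPM and the junction and adhesion genes CDH1 and EPCAM at 2.82 and 1.68 TPM. The mesenchymal markers VIM and CDH2 were listed at 401 and 24.2 TPM. Of the kidney markers, the tubule receptor LRP2 was listed at 7.24 TPM, WT1 at 4.46, PAX2 at 1.57 and NPHS1 at 0.0478, while UMOD and AQP2 were listed at 0. The blood markers PTPRC and SPI1 were listed at 0.320 and 0.151 TPM and CD3E at 0, and the endothelial markers PECAM1 and CDH5 at 0.270 and 0.0191 TPM. In these bulk libraries, fewer cells with a transcript and less of it per cell cannot be told apart.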

How the data were processed

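Per the submitters' processing notes, transcripts of the untreated HEK293T libraries were quantified with kallisto on hg38. Its version, strand setting and transcript release are not given in the sources used here. Deposited TPM values, scaled by the authors within each library, covered 185299 transcripts. The deposited estimated counts name no library. They sum to 33184885 reads, and TPM rebuilt from them differed from replicate 1 by at most 1.08e-05 (relative), so no count test was run and depth of replicates 2 and 3 is not given by the file.

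TPM was summed by gene symbol. Transcripts were matched by identifier to GENCODE 29 (90.5% of all, and all 84 of the members). Shares of reads are TPM times effective length, normalised within the gene, with the single deposited column of effective lengths used for all libraries. Shared sequence was counted as words of 31 bases on the transcript strand. Symbols above 0 in at least 1 library were tested with limma 3.58.1 in R 4.3.3, with a trended prior, pseudocount 0.01 TPM; pair ratios used 0.1 TPM. An exact sign-flip test of 3 libraries cannot go below p = 0.25, so pairs, sums and shares carry no test. The script was tested on simulated data.

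The members and lists were chosen with earlier results of these data known. All members were named, with the highest and lowest gene of each list, genes not above 1 TPM, the 3 further zipper partners, transcripts with at least 10% of a member's TPM and known isoforms. Alternatives were other pseudocounts and levels, filters, TMM from edgeR 4.0.16, median-of-ratios scaling, removal of mitochondrially encoded genes, leaving out each library and, chosen after seeing the data, coding transcripts for the calls and complete coding transcripts.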

Additional observations from a re-analysis of the deposited data

How the results depend on the processing

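All settings run kept 9 members above 1 TPM and MYCN below. The adjusted p of MYCN in limma ran from 0.000386 to 0.0459, the latter against 0.5 TPM. The choice of transcripts turned the direction of some ratios. The log2 ratio of MYC family to antagonists was -0.06 with all transcripts, 0.53 with protein-coding transcripts alone and 0.58 with complete coding transcripts. That of MYC family to MAX moved to 0.80 and 0.78 under the same settings. With coding transcripts alone, MXI1 to MNT reversed to 1.21 and MNT to MGA to -1.18. The first setting leaves out non-coding models, and the second also incomplete coding models such as MYC-204, MXD3-204 and MXD3-209. The MYC family has no non-coding model, so in its ratios the first setting could lower only the antagonists and MAX. What the reads assigned to the models left out stand for was not tested. For MYC to MYCN the log2 ratio ran from 6.50 to 8.73 with the TPM added to both genes. Leaving out each library reversed no ratio. Pair ratios with MLXIP and the calls of the lists were not rerun over coding transcripts, because 7 of the 79 list genes, MLXIP among them, had transcripts with no match in the annotation. No paired analysis was possible because the 3 libraries form 1 group. Depth limits MYCN, at 15 estimated reads.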
